A study of Caenorhabditis elegans with 2 samples.

Results

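The histone genes of Caenorhabditis elegans were examined for entries in ChIP-seq peak lists of the DNA-binding protein FLH-1. Members were the nuclear protein-coding genes whose symbol is his- followed by a number, which gave 72 of 19973 genes. They were annotated as 17 genes for H2A, 16 for H2B, 20 for H3, 16 for H4 and 2 short records with a histone domain (his-39 and his-73). The remaining gene, his-24, is annotated as Histone 24 and was counted as the linker histone H1. Both samples were biological replicates of 1 group: mixed-stage, mixed-sex embryos obtained by egg bleaching, with an age label of 2 hours. The strain, OP702, carries the allele unc-119(tm4063) and the transgene wgIs702, in which flh-1 is fused to TY1, EGFP and 3xFLAG tags beside a rescuing copy of unc-119. The sequence that drives the transgene is not stated in the labels, and whole embryos were used, so no cell type could be assigned. Sonicated chromatin was precipitated with an antibody against GFP, the tag, while the antibody entry of the labels reads flh-1. No untagged strain or mock precipitation was analysed here, so signal that does not depend on FLH-1 was not measured.

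Histones are the proteins around which DNA is wrapped. A nucleosome holds H2A, H2B, H3 and H4, and H1 binds the DNA between nucleosomes. The core histone genes of C. elegans lie mostly in repeated clusters of H2A/H2B and H3/H4 pairs transcribed away from each other, which supply histones while DNA is copied, whereas variants such as the H3.3 proteins are made at other times as well. FLH-1 has a FLYWCH zinc finger and is known from embryos for repressing microRNA genes.

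Each gene was scored by its strongest entry with a summit between 1000 bp upstream and 200 bp downstream of its 5′ end. The lists were 1 for each replicate, 1 from both replicates pooled and the optimal set. The first of these had 30000 entries each, ordered by the signal value of the authors' peak caller. The optimal set held 371 peaks, which the authors chose by irreproducible discovery rate (IDR). At his-67/his-68 and his-72 the ranks in the optimal set equalled the pooled ranks (116 and 362), with the same signals. An optimal peak was therefore not read as evidence on the replicates apart from its pooled rank. Signal values were read only within a list, and rank 1 is the strongest. The lists give no read counts, so depth is unknown. With 1 group there was no contrast to test, and the counts below are descriptions set beside the same counts over all protein-coding genes.

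In the pooled list, 27 of the 72 histone genes (37.5%) had an entry, against 34.1% of all protein-coding genes, so the share of histone genes was near the background. In replicate 1, 26 histone genes (36.1%) had an entry and the background was 33.8%. In replicate 2 these were 28 genes (38.9%) and 33.9%. An entry in both replicate lists was found for 22 histone genes (30.6%) and for 18.4% of all genes. These entries could lie anywhere in the window and need not mark the same site. At his-64, for example, the replicate summits lay at -808 and 46 bp from the 5′ end. Optimal peaks lay at 3 histone genes (4.17%), namely his-67, his-68 and his-72, against 0.921% of all genes. The other 69 had none, and 40 histone genes had no entry in the promoter window in any list. The share of all protein-coding genes without an entry in any list was not counted, so this number has no background. Many promoter windows overlap, and the 27 genes shared 19 distinct pooled summits, of which 8 belonged to 2 genes and 11 to 1 gene. Counted as 41 loci, with each divergent pair taken once, 17 loci (41.5%) had a pooled entry. A pair counted when either of its genes was scored. No share by locus was computed for other genes, and the shares by gene are not a like background.

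**Figure D1:**
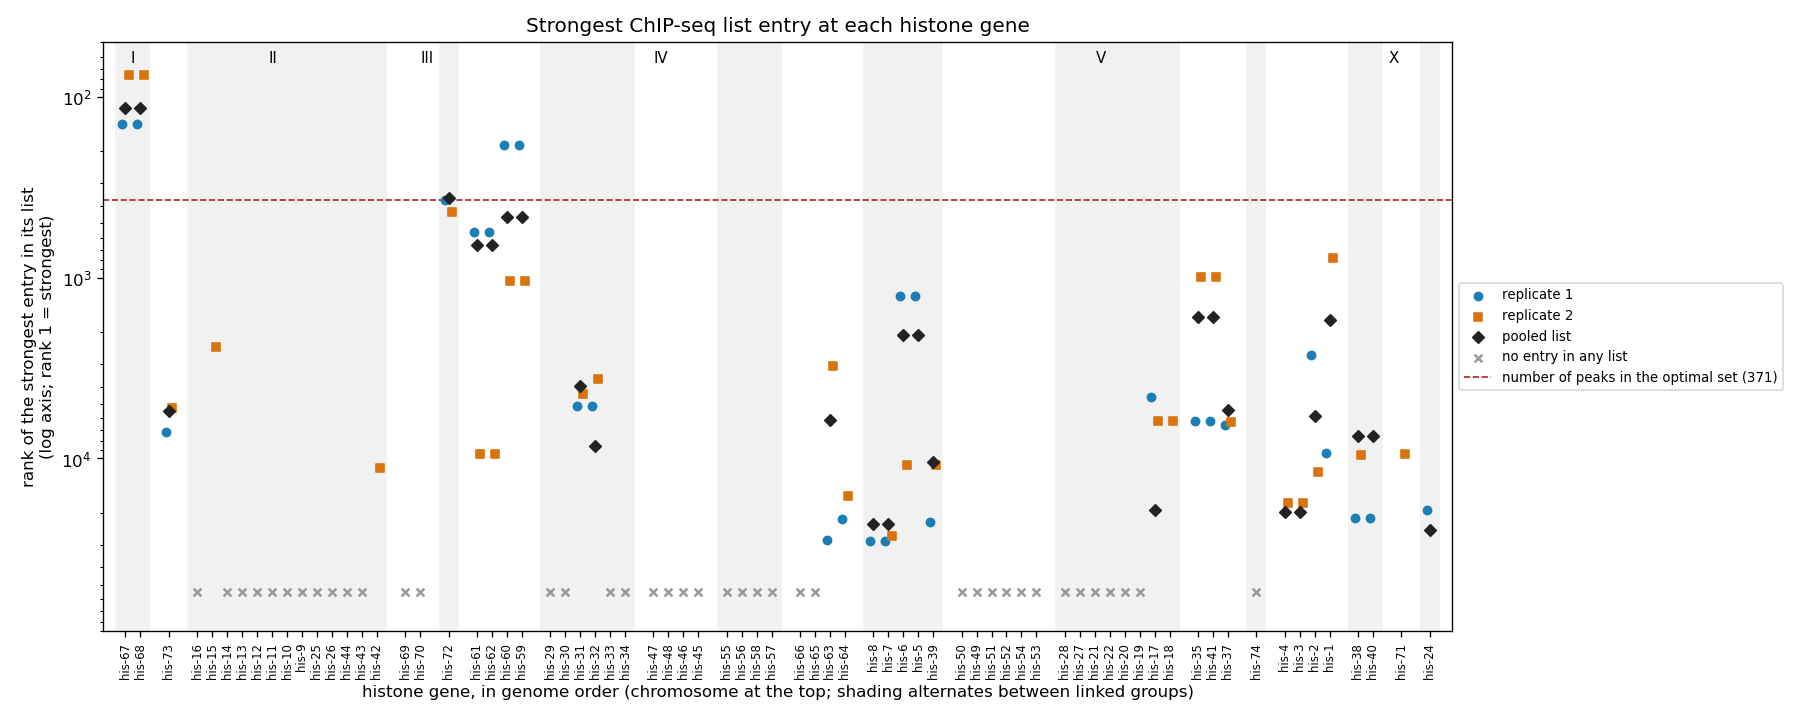
Rank of the strongest entry at each of the 72 histone genes in replicate 1 (circles), replicate 2 (squares) and the pooled list (diamonds), on an inverted log axis with rank 1 as the strongest, in genome order. Crosses mark the 40 genes with no entry in their promoter window in any list, which include all genes of 4 groups, 1 solitary gene and some genes of other groups, and the dashed line marks rank 371, the number of optimal peaks. The share of all genes without an entry in any list was not counted.

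Histone genes with and without entries differed in how much of the promoter window is found once in the genome. The single-copy share of a window was the percentage of its words of 36 bp that occur at 1 place on either strand, and its median over the histone genes was 23.3%. Among the 32 histone genes whose windows were at least 50% single-copy, 26 (81.2%) had a pooled entry, against 34.9% of 19327 other protein-coding genes with such windows. Counted as loci, with divergent pairs taken once, 16 of 21 (76.2%) had a pooled entry, and no share by locus was computed for other genes. An entry in both replicate lists, not necessarily at the same site, was found for 21 of the 32 genes (65.6%), against 18.8%. An optimal peak was found for 3 genes (9.38%), against 0.931%, and his-67 and his-68 share theirs. Among the 40 histone genes under that limit, 1 (2.50%) had a pooled entry, against 5.40% of 574 other genes. That gene, his-17, also had entries in both replicate lists, where the share of other genes was 2.44%, and none of the 40 had an optimal peak, against 0.174%. Of these 40, 37 were among the 40 histone genes with no entry in any list. The limit of 50% was chosen after the values were seen. All 20 histone genes without a single-copy word in the window were unscored in the pooled list, as were all 186 protein-coding genes of that kind. Whether reads that match several places were kept in the alignments is not given in the sources used here, so an entry missing at a repeated copy cannot be told apart from a site that the reads could not show.

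**Figure D2:**
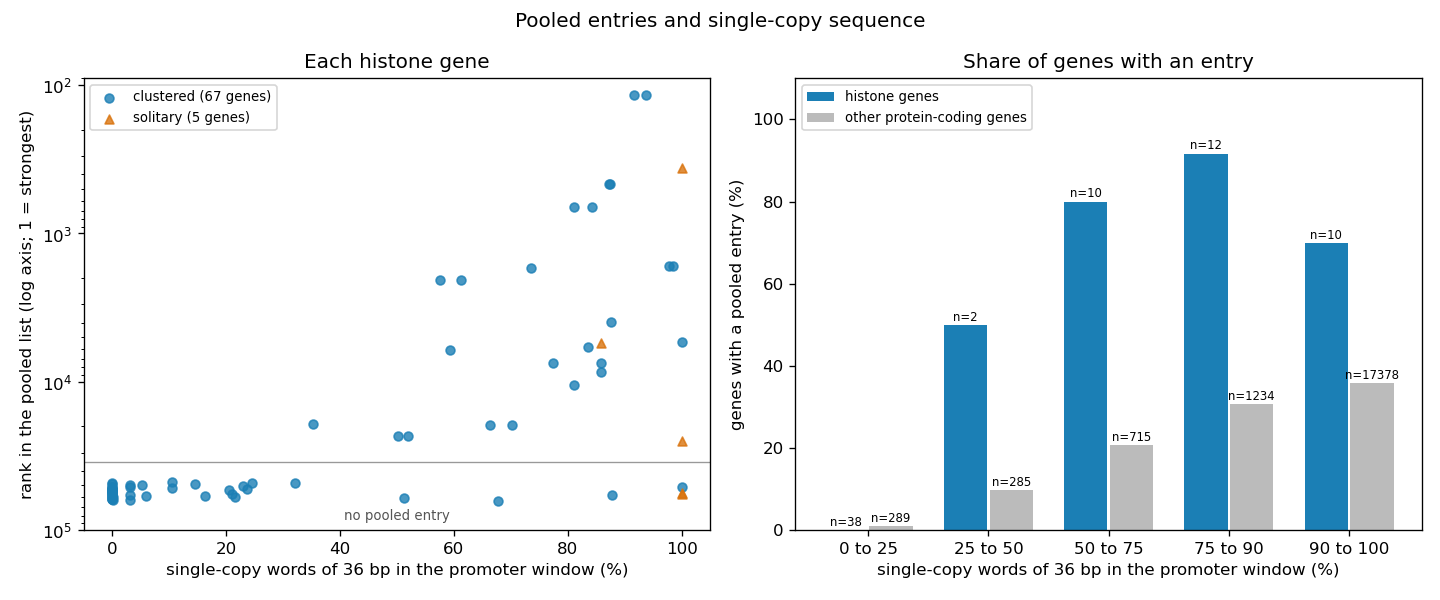
Left, rank in the pooled list (inverted log axis) against the single-copy share of the promoter window for 67 clustered and 5 solitary histone genes, with genes lacking a pooled entry spread below the line. Right, bars give the percentage of genes with a pooled entry by single-copy share: histone genes with an entry were 0 of 38 below 25% and 8 of 10, 11 of 12 and 7 of 10 in the upper 3 bins, where other protein-coding genes stood at 20.8%, 30.7% and 35.8%.

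Other paired genes stood between these values: of 3358 other protein-coding genes in divergent pairs within 1000 bp and with windows at least 50% single-copy, 44.1% had a pooled entry. Ribosomal protein genes, another highly expressed family, were scored at 58 of 78 (74.4%), close to the 81.2% of the histone genes. The scored histone genes also ranked high, with a median pooled rank of 5421 against 12671 over all scored genes, 9756 over divergent pairs and 5158 over ribosomal protein genes. In replicate 1 the medians were 5676 for histone genes and 12614 for all genes, and in replicate 2 they were 6189 and 12910. Of the 19 pooled histone summits, 11 (57.9%) had a summit within 100 bp in both replicates, compared with 26.6% of 5952 pooled summits at all genes. The pooled list was made from the same replicates and the histone entries ranked higher. Summits of like rank were not compared. Whether such entries depend on the tagged protein was not tested.

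The strongest histone entry lay between the diverging genes his-67, which encodes H4, and his-68, which encodes H2A, on chromosome I. Its pooled signal was 165 at rank 116, in an entry from 9988721 to 9989184 with its summit at 9988953, 190 bp upstream of his-67 and 179 bp upstream of his-68. The signal in replicate 1 was 95.9 (rank 141), with the summit displaced by -33 bp, and in replicate 2 it was 68.3 (rank 76), with the summit at the same base. This locus was therefore among the strongest 371 entries of all 3 lists, and its peak was kept in the optimal set. It is the only one of the 31 divergent pairs that joins H2A to H4, its spacer of 368 bp is the longest, and every word of 36 bp in that spacer is single-copy.

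The other 30 pairs comprised 16 of H2A with H2B and 14 of H3 with H4, and their spacers ran from 227 to 327 bp. A pooled entry was scored, at 1 or both genes, at 4 of the 16 H2A/H2B pairs and at 7 of the 14 H3/H4 pairs. Among genes with windows at least 50% single-copy the classes did not differ in this way. All 5 H2A, all 4 H2B, 7 of 8 H4 and 6 of 7 H3 genes not of H3.3 type had a pooled entry. The share was 44.1% for other divergent-pair genes with such windows. Of the 31 spacers, 16 were identical, base for base, to the spacer of another pair. None of those 16 pairs had a scored gene. Such a spacer holds no single-copy word of 36 bp, so a missing entry there cannot be told apart from a site that the reads could not show. Among the 15 pairs with a spacer of their own, 12 had at least 1 scored gene, and no share of pairs was computed for other genes. The unscored ones, his-46/his-45, his-55/his-56 and his-58/his-57, had spacers with 16.1%, 16.1% and 0% single-copy words.

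The second optimal peak lay at his-72, an H3.3 gene outside the clusters and one of 5 solitary histone genes. Its pooled signal was 91.5 at rank 362, just above 90.3, the weakest signal of the optimal set. In replicate 1 the signal was 63.8 (rank 372) at the same base, and in replicate 2 it was 32.7 (rank 436) at a summit displaced by 76 bp. Both replicates thus held the site at a similar rank. The summit, at chrIII:12368951 on the WBcel235 assembly, lay 99 bp inside the longest transcript of the gene, in its first intron, and 787 bp upstream of the start of the shorter transcript. A snoRNA gene, Y49E10.36, sits in his-72, and its nearer end was 407 bp from the summit. The 101 bp centred on the summit are shown because this is the solitary histone gene with the strongest entry. They run over chrIII:12368901-12369001, read on the plus strand from the RefSeq genome sequence, and capitals mark the word TATAAA:
his-72: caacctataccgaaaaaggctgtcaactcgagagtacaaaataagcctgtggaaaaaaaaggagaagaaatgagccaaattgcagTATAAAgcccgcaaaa

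A further pair of loci stood within the strongest 1000 pooled entries, side by side in 1 group on chromosome IV (7485834 to 7488659). The H2A/H2B pair his-61/his-62 had its summit between the genes, at 7486415, 198 bp upstream of his-61 and 130 bp upstream of his-62. Its pooled signal was 72.7 (rank 661), and the replicate ranks were 562 and 9415, so this site was strong in replicate 1 and weak in replicate 2, although both summits lay within 9 bp of the pooled one. The bases around this summit, chrIV:7486365-7486465 on the plus strand, are shown because they hold a pair of words common to histone spacers, CATTCGG and the reverse complement of GGACACAT, in capitals:
his-61/his-62: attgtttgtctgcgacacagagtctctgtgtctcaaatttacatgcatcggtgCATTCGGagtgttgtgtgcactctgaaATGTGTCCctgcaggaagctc

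The neighbouring H3/H4 pair his-60/his-59 ranked higher, with a pooled signal of 82.9 (rank 464), but its summit at 7487905 lay in the coding sequence of his-60, the H4 gene. Replicate 1 had a summit 17 bp away (signal 85.5, rank 184). Replicate 2 had none within 100 bp, and its strongest entry at the pair (signal 26.1, rank 1044) was centred at 7488393, in the direction of his-59. Further pooled entries with summits at 7488104 (rank 1529), between the genes, and 7488325 (rank 1241) made this pair a run of 3 overlapping entries over the spacer and the start of both genes.

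Weaker summits lay more often in the genes than between them. Of the 19 pooled summits, 2 were between the 5′ ends of a pair, 1 in an intron, 11 (57.9%) in an exon and 5 elsewhere, while 31.1% of the 5952 summits at all genes lay in an exon of a protein-coding gene. The windows themselves were richer in exons, at a mean of 44.5% of bases for scored histone genes and 31.4% for all scored genes. Counting every pooled entry and not just the strongest, 5 pairs had a summit between their 5′ ends. Genes for tRNAs and snoRNAs all lay more than 100 bp from each of the 19.

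**Figure D3:**
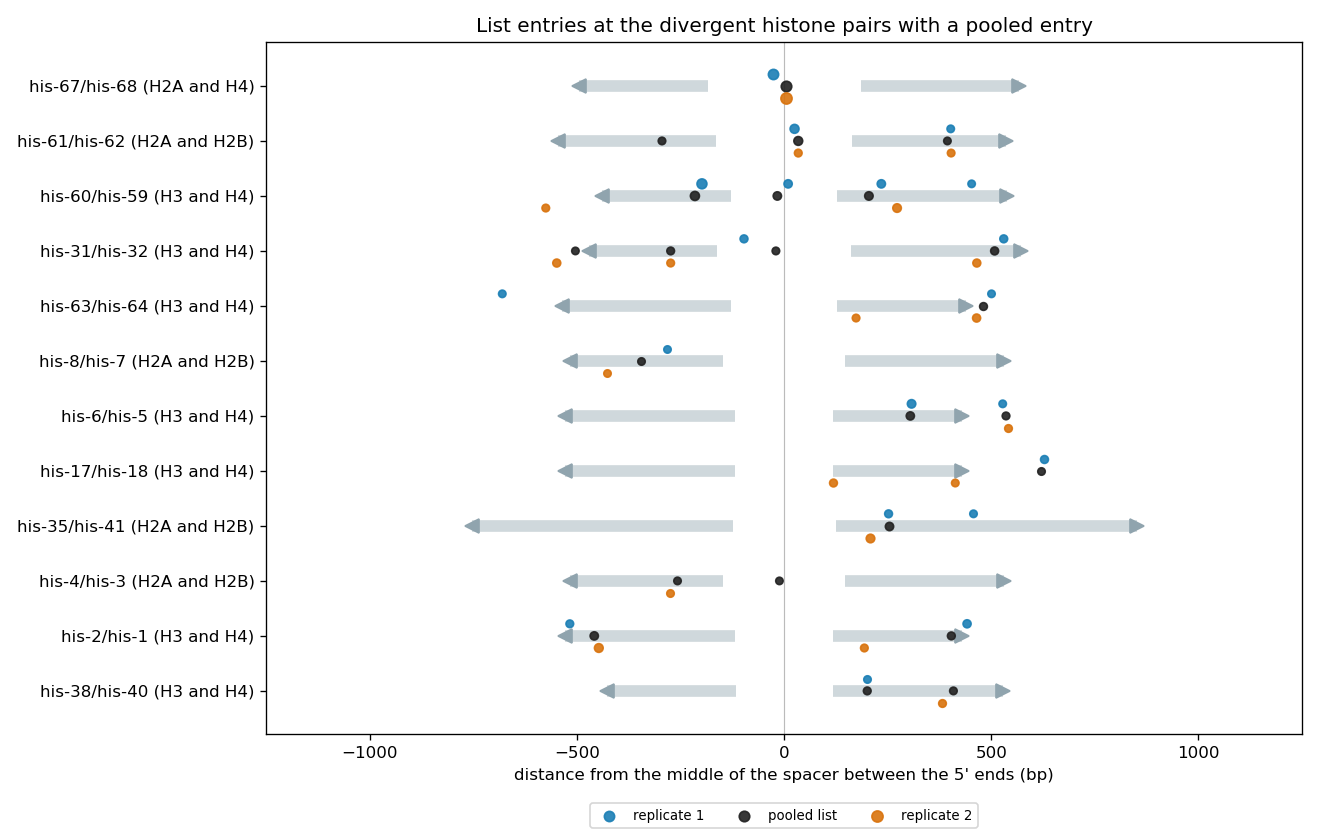
Summits of all list entries at the 12 divergent pairs with a pooled entry, as distance in bp from the middle of the spacer, with grey arrows for the genes and larger points for stronger ranks. The 3 lists meet in the spacer at his-67/his-68 and his-61/his-62, and at most other pairs the points lie over the genes or beyond them.

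Members with ranks from 1650 to 8529 formed the middle of the list. At his-35/his-41, an H2A variant paired with H2B, the pooled signal was 57.4 (rank 1650), the replicate ranks were 6206 and 993, and the summit lay in an exon of his-41, 130 bp from its 5′ end. The pair his-2/his-1, of H3 and H4, had 2 summits: the entry of his-1 (signal 57.0, rank 1706; replicate ranks 9275 and 774) lay in the coding sequence of his-2, and that of his-2 (42.9, rank 5793) lay in his-1. For his-6/his-5, also of H3 and H4, the signal was 54.7 (rank 2065), with rank 1256 in replicate 1 and no summit within 100 bp in replicate 2. The remaining entries of this range belonged to the H4 gene his-31 (rank 3950), the H4 gene his-37 (5421), his-73 (5475), his-63 (6130), his-38/his-40 (7492) and his-32 (8529). In this range the replicates often disagreed on the order. No entry reached the optimal set, and all ranked below the strongest 371 pooled entries.

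The last entries ranked from 10513 at his-39 through his-17 (19284), his-4/his-3 (19667) and his-8/his-7 (23147) to 25018 at his-24. At his-24, the H1 gene, the pooled signal was 25.8, the summit lay in an exon 29 bp inside the gene, and neither replicate had a summit within 100 bp. Replicate 1 had 2 entries in the promoter window that overlap the pooled one (ranks 19342 and 22509), with summits at 168 and -184 bp from the 5′ end, and replicate 2 had none there.

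By class, pooled entries were found for 5 of 17 H2A genes, 4 of 16 H2B, 8 of 20 H3 and 7 of 16 H4 genes, and for his-24, his-39 and his-73. The share of all protein-coding genes was 34.1%. Among genes with windows at least 50% single-copy, entries were found for all 5 H2A, all 4 H2B, 7 of 12 H3 and 7 of 8 H4 genes. Other protein-coding genes with such windows stood at 34.9%. The H3 class held most of the unscored genes with single-copy windows. It includes the 5 genes annotated or known as H3.3 type, his-69, his-70, his-71, his-72 and his-74, all with such windows. Of these, his-72 had a pooled entry, beside 34.9% of other protein-coding genes with such windows, and 5 genes are too few to set apart from that share. No list held an entry in the promoter window of his-69, his-70 or his-74, although each list had 1 summit inside his-74 beyond that window. At his-71 replicate 2 alone had entries, 3 in number, the strongest with a signal of 15.3 (rank 9438). The other unscored genes with mostly single-copy windows were his-64, with weak entries in each replicate (ranks 21549 and 16069), and his-42, with an entry in replicate 2 (rank 11347).

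Arrangement followed the same division. Genes were called clustered when the 5′ end of another histone gene lay within 10000 bp, which gave 67 clustered genes in 14 groups and the 5 solitary genes his-24, his-71, his-72, his-73 and his-74. Pooled entries were found for 24 of 67 clustered genes (35.8%) and 3 of 5 solitary genes, against 34.1% of all protein-coding genes. Windows at least 50% single-copy belonged to 27 of the clustered and all 5 solitary genes. Restricted to these, clustered genes stood at 23 of 27 (85.2%, or 13 of 16 loci) and solitary genes still at 3 of 5. The share was 34.9% for other protein-coding genes with such windows, and no share by locus was computed for other genes. The order of the groups therefore turned with the restriction, and 5 solitary genes are too few to set one above the other. Among the scored solitary genes, his-73 had its pooled summit 963 bp upstream of its 5′ end. The entry of his-24 ranked 25018, with no summit within 100 bp in either replicate.

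Some groups had no entry within their span in any list, and most of these hold little single-copy sequence. The exception was the pair of H3.3-type genes his-69 and his-70 on chromosome III (4058360 to 4060119), empty in all 3 lists although 98.4% of its span was single-copy. The largest group, 13 genes from his-16 to his-42 on chromosome II (13817760 to 13828697), had no entry in any list inside its 10938 bp, of which 7.05% was single-copy, and its only entries lay beyond its ends, in replicate 2 at his-15 (rank 2419) and his-42. Both 4-gene groups on chromosome IV from his-47 to his-45 (11324056 to 11326998) and from his-55 to his-57 (11337853 to 11341703) also had none, with 3.61% and 24.0% single-copy sequence. On chromosome V the 6 genes from his-50 to his-53 (8847393 to 8854053) had no single-copy word and no entry. The nearby 8 genes from his-28 to his-18 (8889488 to 8898539), at 1.08%, had no replicate 1 or pooled entry within the span and 2 in replicate 2, at its his-17/his-18 end.

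Several clusters held scored and unscored pairs side by side. In the group from his-29 to his-34 on chromosome IV (8331044 to 8336340), the outer H2A/H2B pairs share 1 spacer sequence of 253 bp and were unscored. The H3/H4 pair between them, his-31/his-32, has a spacer no more than 63.2% identical to any other. It had 2 distinct strongest pooled summits, which lay in exons of his-32 and his-31 and not in the spacer. The pooled entry with its summit in that spacer was weaker (rank 14356). In the group from his-66 to his-64 (11400415 to 11407427), his-66/his-65 shares its spacer of 305 bp with his-47/his-48 and was unscored. There his-63 was scored, by a summit 608 bp upstream of its 5′ end that lay outside the spacer and beyond his-64. The group from his-8 to his-39 on chromosome V (8532715 to 8536716) had an entry at all 5 genes, and so did those from his-35 to his-37 (9544659 to 9547607) and from his-4 to his-1 (16040144 to 16042831).

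The H3/H4 pairs on chromosomes V and X form 1 family of related spacers. The same 60 bp of the spacer, read from the H3 gene towards the H4 gene, are shown for each distinct sequence, with capitals where the base differs from his-50/his-49. In his-28/his-27 the whole spacer equals that of his-50/his-49, and neither pair had an entry in its promoter windows in any list. At his-17/his-18 these 60 bp are equal too and the whole spacer is 98.7% identical, and the pooled entry of his-17 lay outside the spacer, 738 bp upstream of its 5′ end. The intervals are chrV:8847784-8847843 (minus strand) for his-50/his-49, chrV:8535077-8535136 (plus) for his-6/his-5, chrV:16042383-16042442 (plus) for his-2/his-1 and chrX:7309952-7310011 (minus) for his-38/his-40:
his-50/his-49: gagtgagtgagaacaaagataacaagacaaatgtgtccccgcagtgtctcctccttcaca
his-6/his-5: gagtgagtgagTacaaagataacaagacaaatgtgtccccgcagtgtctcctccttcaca
his-2/his-1: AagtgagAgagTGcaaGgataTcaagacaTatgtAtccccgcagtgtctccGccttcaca
his-38/his-40: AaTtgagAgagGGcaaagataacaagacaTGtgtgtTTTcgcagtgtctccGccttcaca

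In these 60 bp his-6/his-5 differs from his-50/his-49 at 1 base, his-2/his-1 at 9 and his-38/his-40 at 11, and over the whole spacer they are 94.5%, 88.2% and 86.1% identical to it. All 3 pairs had pooled entries. The single-copy share of the whole promoter window was 0% for both genes of his-50/his-49, 57.5% and 61.2% at his-5 and his-6, 73.5% and 83.6% at his-1 and his-2, and 77.4% and 85.8% at his-38 and his-40. None of their pooled summits lay between the 5′ ends, so the shared stretch itself carried no pooled summit in any of them.

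Short words were counted on both strands from 250 bp before to 50 bp after each 5′ end, where the 72 histone genes have 61 distinct sequences. TATAAA was present at 47 histone genes (65.3%) and at 37.9% of all protein-coding genes. CATTCGG occurred at 44 (61.1%) against 2.17%, and GGACACAT at 43 (59.7%) against 0.786%. Both of these words were chosen after the spacers had been read, so their counts describe the family. CATTCGG was in 14 of 16 H2A/H2B spacers and 7 of 14 H3/H4 spacers, and GGACACAT in 10 and 9. Around the pooled summits, within 50 bp to each side, GGACACAT lay at 2 of 19, the summits of his-67/his-68 and his-61/his-62, and CATTCGG at 1. The other words were less frequent at histone genes than at all genes: TGCGTC stood at 2 histone genes (2.78%) against 8.78% of all genes, GTTCGA at 3 (4.17%) against 9.85%, GCGCGC at 1 (1.39%) against 3.58%, and GGCGCC at none against 2.01%. TGCGTC was within 50 bp of 2 summits, those of his-67/his-68 and his-31. Matches of different words may overlap, and a match in these windows is a description only.

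Genes that act with histones were read from a list of 25: other H1 genes, the H2A.Z gene htz-1, the centromeric H3 genes hcp-3 and cpar-1, the stem-loop binding protein cdl-1 and histone chaperones. Pooled entries were found for 13 (52.0%), against 34.1% of all genes, with a median rank of 2529 against 12671 over all scored genes. Entries in both replicate lists were found for 8 of the 25, against 18.4% of all genes. No optimal peak lay at any of them, where 0.921% of all genes had one. The highest ranks belonged to the chromatin assembly subunit chaf-2 (764), the FACT subunit spt-16 (776), the H1-like hil-3 (902), the ATRX homologue xnp-1 (1261), the ASF1-type chaperone unc-85 (1449) and hil-7 (1876). In replicates 1 and 2, chaf-2 ranked 964 and 20878, and xnp-1 ranked 605 with no entry in replicate 2. The replicate ranks were 1942 and 2542 for spt-16, 1273 and 1334 for hil-3, 2677 and 1407 for unc-85, and 4022 and 455 for hil-7. The chaperones lin-53 (2529), rba-1 (3673) and nasp-2 (10088), the FACT subunit hmg-4 (15047), hcp-3 (19897), hil-4 (20335) and hil-6 (22395) followed. No promoter entry was found in any list for htz-1, cpar-1, hil-1, hira-1, chaf-1, nasp-1 or hmg-3.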

How the data were processed

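Per the file headers and description files, the authors aligned reads to ce11 and made each list against a control alignment. The aligner, peak caller, IDR threshold and treatment of reads matching several places are stated neither in the labels nor in the files. Column 7 of the deposited lists holds the authors' signal value, used to rank entries. The deposited −log10 q value was not used. Genes came from the Ensembl 115 annotation of WBcel235, the same build. Symbols came from RefSeq, joined on the WormBase ID (19962 of 19973 nuclear protein-coding genes, all 72 histone genes). The records of 69 histone genes have a length that is a multiple of 3, and most therefore start at the start codon. Sequences were cut from the RefSeq genome, since no promoter or protein table was used. Words of 36 bp were counted over the whole genome on both strands. Spacers were compared by global alignment (Biopython 1.88), and other steps used pandas 2.3.3 and numpy 2.4.6. Scoring and word counting were checked on simulated data.

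Members and lists were chosen with earlier results of these data known. Named genes were those with an optimal peak, the next 5 summits, the strongest of each class, all solitary genes, the ends of each cluster, the variants and the scored related genes; others were named after their values were seen. Alternatives were other windows, 5′ ends, overlaps, linking distances, word lengths and single replicates.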

Additional observations from a re-analysis of the deposited data

How the results depend on the processing

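Of 49 alternative values, 43 kept close to the reported one (a count within 1.5 times, another value within its spread). With windows from 500 bp upstream to 100 bp downstream, the count of histone genes scored in both replicates went from 22 to 10, and the median pooled rank from 5421 to 3743. The share of all genes scored in both replicates is not given for these windows. Whether the histone share still exceeded it was not tested. With windows reaching 2000 bp upstream that rank was 3950, and from single replicates it ran from 5676 to 6189. Summits in both replicates went from 11 to 7 when matched within 50 bp, and the share of summits at all genes is not given for 50 bp. At a limit of 90% single-copy sequence, 7 of 10 histone genes were scored, against 35.8% of other genes, and at 75% 18 of 22 (81.8%). The share for windows at least 50% single-copy was 56.2%, against 21.3%, in the shorter windows. The cause of these shifts was not tested. With 2 replicates, unknown depth and no untagged control, a missing entry is no evidence that FLH-1 was absent. No paired analysis was possible because there was 1 group.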
